A study of Mus musculus with 11 samples.

Results

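Nucleosomes carrying H3K4me2 were compared between jejunal villi lacking Hnf4a and wild-type villi. Each genotype had 1 library. A called nucleosome counted as a member when its score was 52 or more, the score being 10 times the −log10 of a p-value per the file headers. This rule kept 250282 of 485509 rows of the Hnf4a knockout list and 245431 of 250986 rows of the wild-type list. The 5 H3K4me2 lists of the series held 1570833 rows in all. The 235227 rows below 52 in the Hnf4a knockout list are described at the end, since no row of the wild-type list scored under 50.1.

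H3K4me2 is dimethylation of lysine 4 on histone H3, a mark of nucleosomes at active and poised promoters and enhancers. At a bound enhancer the factor typically occupies a short stretch of open DNA between a pair of marked nucleosomes, so the position of single nucleosomes around a binding site is informative as well as their number. HNF4A is a nuclear receptor that binds DNA as a dimer and regulates genes of lipid handling and digestion in enterocytes, the absorptive cells that cover the villus. CDX2 is a homeodomain factor of the intestinal epithelium and binds many of the same regions.

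The series mapped CDX2, HNF4A and H3K4me2 by chromatin immunoprecipitation and sequencing in 11 samples. Per the labels, the Hnf4a KO and WT mice had a mixed 129xC57BL6 background, epithelium was released with EDTA, and villi stayed on a 70 µm filter that crypts passed through. Micrococcal nuclease, which cuts the DNA between nucleosomes, is described for unfixed villi without naming the libraries, and each library came from pooled ChIP DNA of 10 to 20 ng. No source used here names the Hnf4a allele, the Cre driver, the age of the mice or how many were pooled. Cdx2 KO villi and the libraries titled Cdx2-Cdx1 DKO and Cdx2-Hnf4a DKO served only as further lists set beside the comparison. The labels of both double knockouts contradict each other on the second deleted gene, so these libraries are called by their titles. All 4 knockout lists share the single wild-type list as their control.

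With 1 library a side there is no replicate spread, and no p-value is given. Intervals are exact binomial 95% intervals that cover counting error only and treat all counts as independent. No source used here gives the number of reads, so the depth is unknown. At a score of 52 or more the lists were close in size. They covered 24.5 Mb in Hnf4a knockout and 24.6 Mb in wild type, with median scores of 206.8 in Hnf4a knockout and 241.6 in wild type. At a score of 100 or more there were 183998 nucleosomes in Hnf4a knockout and 187666 in wild type. Fewer marked cells and less mark per cell cannot be told apart in such lists. The deletion itself could not be checked in these files, which hold no gene names and no expression, and no annotation of build mm9 was used here, so regions are given by position.

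Most H3K4me2 nucleosomes were found at the same place without Hnf4a. Of the 245431 wild-type nucleosomes, 189317 had an Hnf4a knockout nucleosome centred within 75 bp, which is 77.1% (77.0% to 77.3%). In the other direction 60755 of the 250282 Hnf4a knockout nucleosomes had no wild-type partner, or 24.3%. The kept share was 77.9% in Cdx2 knockout, 74.2% in the library titled Cdx2-Cdx1 and 71.3% in the library titled Cdx2-Hnf4a. Among these 4 lists, Hnf4a knockout had the lowest share of nucleosomes absent from wild type. The share was 25.6% in Cdx2 knockout, 35.4% in the library titled Cdx2-Cdx1 and 36.5% in the library titled Cdx2-Hnf4a. Hnf4a knockout was also the shortest of the 4 lists at this score. The others held 256794 nucleosomes in Cdx2 knockout, 281957 in the library titled Cdx2-Cdx1 and 275915 in the library titled Cdx2-Hnf4a. How far these shares go with list length was not tested.

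Whether a nucleosome was found again went with its score. In the lowest decile of wild-type nucleosomes by score, from 52.5 to 69.4, 41.4% were found in Hnf4a knockout. The share was 80.8% in decile 5 and 98.0% in the highest decile, where scores were 1313.6 or more. Of the 3136 wild-type nucleosomes at the score ceiling of 3250, 3103 had a partner in Hnf4a knockout. The highest decile gave 99.1% in Cdx2 knockout, so Hnf4a knockout was not the list that matched the strongest wild-type nucleosomes best.

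**Figure D1:**
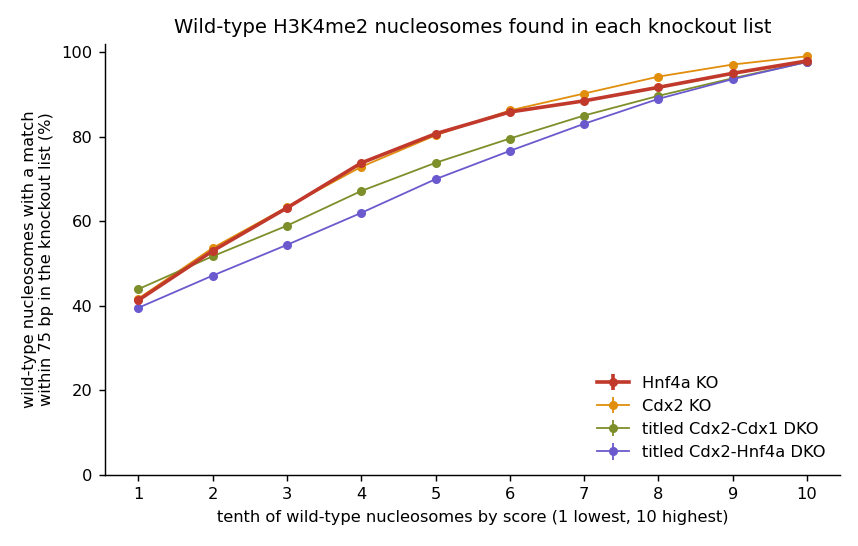
Share of wild-type nucleosomes (%, y axis) that had a nucleosome within 75 bp in each of 4 knockout lists, for deciles of the wild-type list by score (x axis). Bars, mostly smaller than the points, are exact 95% intervals; Hnf4a knockout lies at 41.4% in the lowest decile and 98.0% in the highest and runs close to Cdx2 knockout up to decile 6.

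Most nucleosomes without a partner still had marked chromatin of the other list nearby. Of the 56114 wild-type nucleosomes not kept, 66.0% had a marked Hnf4a knockout nucleosome between 75 and 300 bp away, and 16.7% had none within 1 kb. A further look at the rows under the threshold found an Hnf4a knockout row below 52 within 75 bp of 32.1% of them. In the highest decile only 493 wild-type nucleosomes lacked a partner, 451 of these had an Hnf4a knockout nucleosome within 300 bp, and 10 had none within 1 kb. Over the whole wild-type list, 1492 nucleosomes, or 0.608%, had no Hnf4a knockout row of any score within 1 kb. At a wild-type score of 500 or more this number was 31.

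Matched nucleosomes sat at nearly the same base. The median distance between the centres of partners was 10 bp, and 80.1% lay within 20 bp. Starts and ends lie on a grid of 10 bp, so centres can differ in steps of 5 bp. The median was 5 bp in the highest decile and 15 bp in the lowest, and the median signed shift was 0 bp. The commonest distance between neighbouring nucleosomes was 180 to 190 bp in all 5 lists. Gaps of 180 to 200 bp made up 11.8% of all gaps in Hnf4a knockout, 15.3% in Cdx2 knockout, 11.2% in the library titled Cdx2-Cdx1, 14.6% in the library titled Cdx2-Hnf4a and 15.0% in wild type.

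The kept share varied little along the genome. In 191 bins of 10 Mb that held at least 500 wild-type nucleosomes it had a median of 77.1% and an SD over bins of 2.23 percentage points. The lowest bin, chromosome 2 from 140 to 150 Mb, kept 584 of 824 wild-type nucleosomes in Hnf4a knockout, or 70.9%, against 75.6% in Cdx2 knockout. The highest bin, chromosome 17 from 50 to 60 Mb, kept 674 of 818, or 82.4%. For Cdx2 knockout the SD over the same bins was 3.20 percentage points.

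To look at regions rather than single nucleosomes, both lists were pooled and centres no more than 500 bp apart were joined into domains. Of 83253 domains, 26219 had at least 4 nucleosomes in either list and were compared, and they held 69.6% of the Hnf4a knockout and 71.3% of the wild-type nucleosomes. A domain was called lower or higher when its number of nucleosomes, with 0.5 added to each side, differed by at least 2-fold. By this rule 470 domains, 1.79% of those compared, were lower in Hnf4a knockout, and 661, or 2.52%, were higher, together 4.31%. The excess of higher over lower domains did not hold when centres were joined at 250 bp, with 310 lower and 292 higher, or at a score of 100 or more, with 352 lower and 309 higher. In 67.1% of the domains both lists differed by no more than 1 nucleosome, and in 25.7% the numbers were equal.

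Other knockout lists, each pooled with the same wild-type list, gave larger shares on both sides. Cdx2 knockout had 983 lower domains (3.71%) and 1069 higher ones (4.04%). The library titled Cdx2-Cdx1 had 1106 lower (3.88%) and 2537 higher (8.89%), and the library titled Cdx2-Hnf4a had 2157 lower (7.52%) and 3111 higher (10.8%). Scaling the counts by list length left both Hnf4a knockout numbers as they were. It gave 3.75% lower and 4.01% higher in Cdx2 knockout, 6.7% lower and 7.06% higher in the library titled Cdx2-Cdx1, and 8.47% lower and 8.79% higher in the library titled Cdx2-Hnf4a. With and without scaling, Hnf4a knockout had the smallest share of called domains of the 4 in either direction. The difference between lists was not tested, since no group has a replicate.

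The called domains were small ones. Where the larger of both counts was 4 or 5, 345 of 11742 domains were lower and 486 higher in Hnf4a knockout. With 10 to 19 nucleosomes, 19 of 4429 were lower and 30 higher. None of the 638 domains with 20 or more nucleosomes was called, and the middle 90% of their ratios lay between 0.767 and 1.23. A count of 1 against 4 passes the rule, so a change of 3 calls is enough in the smallest domains.

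**Figure D2:**
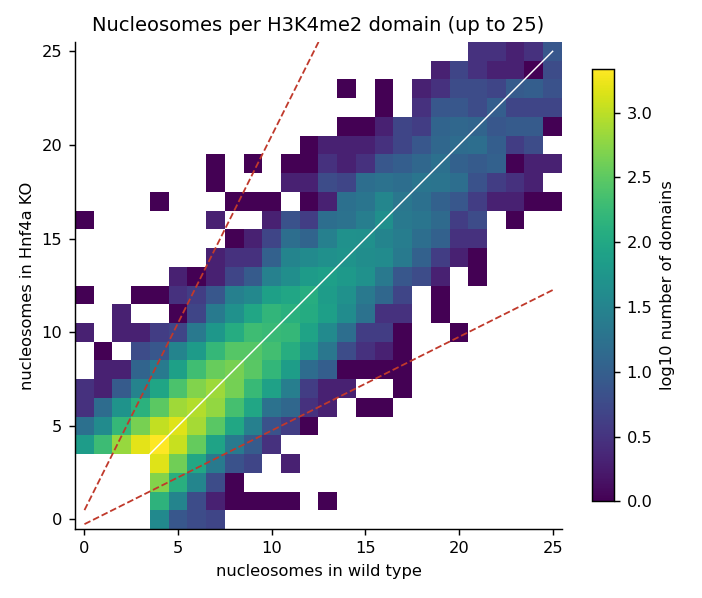
Number of nucleosomes per domain in Hnf4a knockout (y axis) against wild type (x axis), for domains with up to 25 in each, shaded by log10 of the number of domains. The white line marks equal numbers and the dashed red lines the 2-fold rule; domains outside them have few nucleosomes, and large domains stay close to the white line.

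Of the lower domains, 57 held no Hnf4a knockout nucleosome of 52 or more, but only 10 held no row at any score. An Hnf4a knockout row below 52 was present in 390 of the 470 lower domains. When these rows were added to both lists, a step chosen after seeing the data, 104 of the 26219 domains stayed lower by the same rule and 737 were higher. The wild-type list reaches down only to 50.1, so nearly all added rows are from Hnf4a knockout.

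The domains that were lower in Hnf4a knockout did not hold HNF4A binding more often than others. A wild-type HNF4A peak lay in 100 of the 470 lower domains (21.3%), in 164 of the 661 higher domains (24.8%) and in 8103 of all compared domains (30.9%). Large domains hold peaks more often, so the shares were also read by the larger of both counts. Where it was 4, the HNF4A share was 17.2% in lower domains, 16.0% in higher domains and 23.1% in all compared. Where it was 5, the share was 23.0% in lower domains, 30.0% in higher domains and 26.4% in all compared. Among domains with 6 or more nucleosomes the HNF4A share was 24.8% in lower domains, 31.4% in higher domains and 36.1% in all compared. This last class mixes sizes, since it includes the 638 domains with 20 or more nucleosomes, none of which was called. For CDX2, a peak of CDX2 wild-type library 1 lay in 5.53% of the lower domains (3.65% to 8.0%), in 16.9% of the higher domains (14.2% to 20.0%) and in 14.5% of all compared. With 6 or more nucleosomes this share was 10.4% in lower domains (5.65% to 17.1%), 21.1% in higher domains and 16.8% in all compared. Only in this class did the interval of the lower domains take in the share of all compared. At a larger count of 4 the CDX2 share was 2.78% in lower domains (0.908% to 6.36%), 16.3% in higher domains and 11.5% in all compared. At 5 it was 4.85% in lower domains (2.12% to 9.33%), 14.3% in higher domains and 11.9% in all compared. CDX2 peaks called in Hnf4a knockout villi themselves lay in 4 lower domains, 24 higher domains and 780 of all compared.

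The largest fall was at chr2:155630711-155634451, which held 1 nucleosome in Hnf4a knockout and 13 in wild type. This 3740 bp region held 2 wild-type HNF4A peaks and no CDX2 peak. Its highest nucleosome scored 63.9 in Hnf4a knockout and 217.8 in wild type, and 8 Hnf4a knockout rows below 52 lay in it. The library titled Cdx2-Hnf4a had 2 nucleosomes there, the library titled Cdx2-Cdx1 had 3 and Cdx2 knockout 9. Another HNF4A-bound fall was at chr6:48361171-48363941, with 3 nucleosomes in Hnf4a knockout and 11 in wild type, 2 HNF4A peaks of which the higher scored 272.42, and 1 to 4 nucleosomes in the other knockout lists.

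Other large falls lay outside factor peaks. The region chr7:26685361-26688071 held 1 nucleosome in Hnf4a knockout and 11 in wild type, chr5:133017011-133019341 held 1 in Hnf4a knockout and 10 in wild type, and chr19:29001151-29003661 held 1 in Hnf4a knockout and 9 in wild type. None of these 3 held an HNF4A or CDX2 peak. The chromosome 5 region kept 1 strong nucleosome, with a score of 528.6 in Hnf4a knockout and 512.5 as the highest in wild type, and had 9, 6 and 11 nucleosomes in Cdx2 knockout and the libraries titled Cdx2-Cdx1 and Cdx2-Hnf4a. The region chr14:31994401-31996511 held 3 nucleosomes in Hnf4a knockout, 2 in the library titled Cdx2-Hnf4a, 11 in Cdx2 knockout and 11 in wild type.

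Several falls were partial and in long regions. At chr2:84902381-84905891 there were 6 nucleosomes in Hnf4a knockout and 16 in wild type, with no factor peak. At chr18:61176411-61180941 there were 7 in Hnf4a knockout and 17 in wild type, with an HNF4A peak and a CDX2 peak in each wild-type library. This region held 7 nucleosomes in Cdx2 knockout as well, and 17 in the library titled Cdx2-Hnf4a. At chr2:163462611-163466561 there were 6 in Hnf4a knockout and 15 in wild type, and at chr19:38444661-38448711 8 in Hnf4a knockout and 17 in wild type, each with 2 HNF4A peaks.

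The largest rises were of different kinds when the other lists were set beside them. At chr7:13908181-13912241 there were 16 nucleosomes in Hnf4a knockout, with scores up to 627.5, and none in wild type or in any of the other 3 knockout lists. At chr10:61600141-61602931 and at chr2:122117601-122120231 there were 10 each in Hnf4a knockout and likewise none in the other 4 lists. None of these 3 regions held a factor peak. At chr5:121197911-121200321, in contrast, there were 12 in Hnf4a knockout, 11 in each of the other knockout lists, and none in wild type. At chr9:69880091-69884881, which holds an HNF4A peak, there were 17 in Hnf4a knockout, 18, 19 and 18 in the other knockout lists, and 4 in wild type. In these last 2 regions the wild-type library was the one that stood apart from the other 4 lists.

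Among the remaining large rises, chr11:116612411-116616811 held 18 nucleosomes in Hnf4a knockout and 7 in wild type, with 7 or 8 in each of the other lists. A CDX2 peak was called there in Hnf4a knockout villi with a score of 106.52, against 55.47 in CDX2 wild-type library 1 and none in library 2; scores of separate lists are not on one scale. At chr11:63732211-63736241 there were 19 in Hnf4a knockout and 9 in wild type, and at chr3:133173721-133177121 11 in Hnf4a knockout and 2 in wild type, with 3 or fewer in the other knockout lists. At chr12:27137371-27141631 there were 19 in Hnf4a knockout and 7 in wild type, with 13 to 17 elsewhere. At chr7:148405251-148407571 there were 11 in Hnf4a knockout and 2 in wild type, with 7 or 8 elsewhere.

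**Figure D3:**
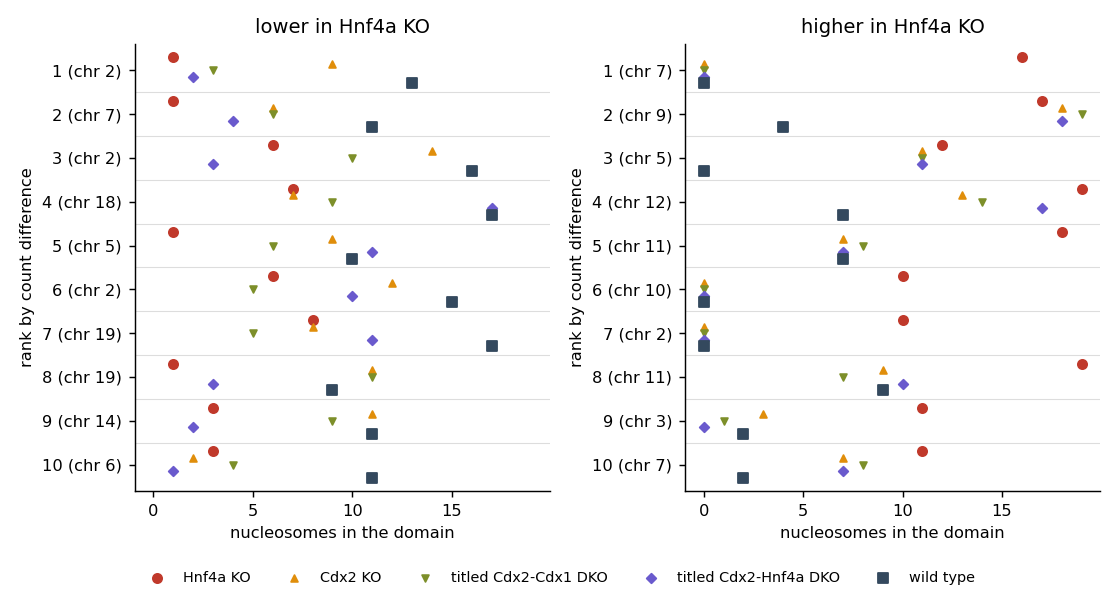
Nucleosomes of score 52 or more (x axis) in the 10 domains with the largest falls (left) and the 10 with the largest rises (right) in Hnf4a knockout, ranked by count difference from wild type (y axis, with the chromosome). Symbols mark the 5 lists; 3 of the rises are at 10 or 16 nucleosomes in Hnf4a knockout and at 0 in every other list.

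Regions in which Hnf4a knockout differed from all 4 other lists were picked out after their values were seen. In 23 of the 661 higher domains every other list was empty at a score of 52 or more, and 4 of these 23 held an HNF4A peak. An HNF4A peak lay in 24.8% of all higher domains and in 30.9% of all compared. Wild-type rows just below 52 lay in some of the 23. Among these were chr11:84765901-84766691, chr13:35057191-35058281 and chr5:119143311-119144091, each with an HNF4A peak. Of these 23, 3 lay side by side on chromosome 2: chr2:122112961-122113581 with 4 nucleosomes, the region with 10 named above, and chr2:122120671-122121731 with 5. In 7 of the 470 lower domains Hnf4a knockout had no nucleosome of 52 or more while each of the other lists had 4 or more. Hnf4a knockout rows below 52 lay in 4 of the 7. None of the 7 held a factor peak, which was also true of 74.9% of all lower domains and 62.0% of all compared. One of them was chr3:96077471-96078681, with 0 nucleosomes and no row of any score in Hnf4a knockout and 6 in each of the 4 other lists.

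The called domains were chosen for extreme values in Hnf4a knockout and wild type, and that choice alone places a list that took no part in it between them. Their means are therefore a description. In the 470 lower domains the mean was 1.58 nucleosomes in Hnf4a knockout, 3.59 in Cdx2 knockout, 2.97 in the library titled Cdx2-Cdx1, 3.13 in the library titled Cdx2-Hnf4a and 5.35 in wild type. In the 661 higher domains it was 5.36 in Hnf4a knockout, 2.35, 2.80 and 2.25 in the other knockouts in the same order, and 1.53 in wild type.

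The called domains with the highest HNF4A peaks changed by few nucleosomes. Among lower domains, the one with the highest peak, scoring 1030.19, was chr13:45395701-45396781, with 2 nucleosomes in Hnf4a knockout and 5 in wild type. The next 4 had peaks of 609.59 to 916.2 and 2 nucleosomes each in Hnf4a knockout against 5 or 6 in wild type. Among higher domains, chr4:148212151-148213501 had a peak of 1731.64, with 5 nucleosomes in Hnf4a knockout and 1 in wild type. At chr19:5492911-5494861, with a peak of 1160.71, there were 8 in Hnf4a knockout and 3 in wild type, and the next 3 had 5 each in Hnf4a knockout and 2 in wild type.

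The number of marked nucleosomes around HNF4A binding sites as a class was close to wild type in Hnf4a knockout. Around the 22376 wild-type HNF4A peaks, the mean number of nucleosomes within 1 kb of the peak centre was 3.21 in Hnf4a knockout and 3.14 in wild type, a ratio of 1.02 (1.01 to 1.03). Here and in the next paragraph, a nucleosome near several peaks was counted once for each. The counts are thus not independent, and the intervals are only approximate. The ratio of the whole lists was also 1.02. In the quintiles of HNF4A peaks by score it ran from 1.01 to 1.03, with no lower value at the strongest sites. The same peaks gave 0.907 in Cdx2 knockout, 0.931 in the library titled Cdx2-Cdx1 and 0.799 in the library titled Cdx2-Hnf4a. Hnf4a knockout was thus the only one of the 4 lists with a ratio above 1 at HNF4A peaks. With nucleosomes of 100 or more the ratio was 0.992 at HNF4A peaks and 0.980 over the whole lists.

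Sites with CDX2 were slightly above this level. The 3700 HNF4A peaks that also had a CDX2 peak of either wild-type library gave a ratio of 1.04 (1.02 to 1.07). The 8927 peaks of CDX2 library 1 without HNF4A gave 1.06 (1.04 to 1.09), with means of 1.65 nucleosomes in Hnf4a knockout and 1.56 in wild type. Their highest-scoring quintile gave 1.09 (1.04 to 1.14), and the same peaks gave 0.770 in Cdx2 knockout.

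At single HNF4A peaks, gains were somewhat commoner than losses. The number within 1 kb was higher in Hnf4a knockout at 28.4% of the peaks, equal at 46.9% and lower at 24.7%. Of the 10495 equal peaks, 4403 had no nucleosome of 52 or more in either list. All nucleosomes of 52 or more were missing in Hnf4a knockout at 648 peaks that had some in wild type, and 595 of these had Hnf4a knockout rows below 52 instead. The opposite, nucleosomes in Hnf4a knockout and none in wild type, held for 787 peaks.

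The position of nucleosomes at HNF4A peaks differed slightly, and less so among strong nucleosomes. A nucleosome centred within 75 bp of the peak midpoint was found at 26.5% of HNF4A peaks in Hnf4a knockout (25.9% to 27.0%) and at 24.2% in wild type (23.7% to 24.8%). The share was higher in Hnf4a knockout in every quintile of peaks by score, but the difference did not grow steadily. In the lowest quintile of peaks by score the shares were 23.0% in Hnf4a knockout and 22.2% in wild type. In quintile 2 they were 23.6% in Hnf4a knockout and 21.1% in wild type, in quintile 3 26.4% in Hnf4a knockout and 24.7% in wild type, and in quintile 4 28.2% in Hnf4a knockout and 25.99% in wild type. In the highest quintile they were 31.1% in Hnf4a knockout and 27.2% in wild type. Of the peaks that had a central nucleosome in one list only, 1936 had it in Hnf4a knockout and 1435 in wild type. Counting only nucleosomes of 100 or more, the central shares were 20.2% in Hnf4a knockout and 19.5% in wild type, and the unshared peaks numbered 1271 in Hnf4a knockout and 1098 in wild type. In the highest quintile, at 52 or more, the unshared peaks numbered 502 in Hnf4a knockout and 327 in wild type, so the Hnf4a knockout side made up 60.6% (57.1% to 63.9%). In the lowest quintile they numbered 276 in Hnf4a knockout and 239 in wild type. The Hnf4a knockout side was 53.6% there (49.2% to 58.0%), an interval that takes in equal numbers.

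The flanking positions moved the other way. Between 100 and 250 bp from the midpoint there were 76.4 nucleosomes per 100 HNF4A peaks in Hnf4a knockout and 79.5 in wild type. Count ratios by distance showed the same pattern, being 1.09 within 75 bp (1.05 to 1.13), 0.978 from 75 to 300 bp (0.960 to 0.996) and 1.04 from 300 to 1000 bp. CDX2 library 1 peaks without HNF4A did not show it. They had a central nucleosome at 16.4% in Hnf4a knockout and at 16.4% in wild type, with 451 peaks on each side that were not shared.

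This central increase was also not confined to Hnf4a knockout. At the highest quintile of HNF4A peaks the central share was 32.6% in Cdx2 knockout, 35.9% in the library titled Cdx2-Cdx1 and 34.2% in the library titled Cdx2-Hnf4a, all above the 31.1% of Hnf4a knockout. All 4 values are read against the same wild-type library. The flanks were lower in those lists, at 92.1, 89.4 and 71.8 nucleosomes per 100 peaks, against 102.3 in Hnf4a knockout and 105.9 in wild type. The increase was seen at HNF4A peaks without CDX2, at 25.6% in Hnf4a knockout and 23.0% in wild type, and hardly at those with CDX2, at 30.6% in Hnf4a knockout and 30.2% in wild type. The difference between HNF4A peaks with and without CDX2 was not tested. Around the midpoints of the CDX2 library 1 peaks with HNF4A, the central share was 36.6% in Hnf4a knockout and 37.5% in wild type. The unshared peaks there numbered 278 in Hnf4a knockout and 309 in wild type.

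**Figure D4:**
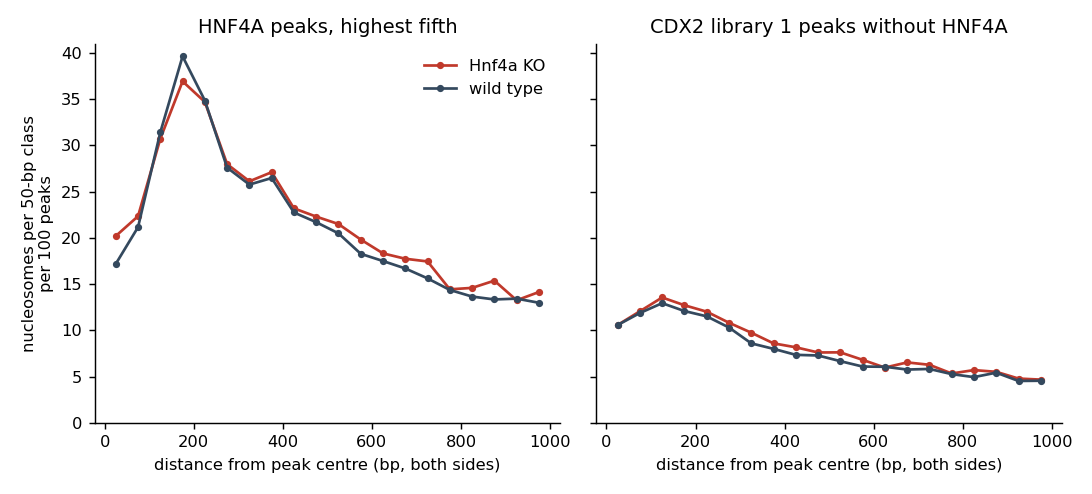
Nucleosomes per 100 peaks in 50 bp classes of distance from the peak midpoint, both sides added (y axis), for the 4475 highest-scoring HNF4A peaks (left) and the 8927 CDX2 library 1 peaks without HNF4A (right). At HNF4A peaks Hnf4a knockout lies above wild type next to the midpoint, at 20.2 against 17.2, and below it at 150 to 200 bp, at 36.9 against 39.6; the CDX2 curves start together.

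Nucleosomes close to HNF4A peaks were also found again more often than distant ones in Hnf4a knockout. Of the wild-type nucleosomes 75 to 300 bp from an HNF4A midpoint, 83.0% were kept in Hnf4a knockout, and of those over 5 kb away 76.3%. In Cdx2 knockout the shares were 77.4% near and 79.7% far. Scores differ with distance, so the lowest quintile by score was read alone. There Hnf4a knockout kept 52.7% at 75 to 300 bp and 45.0% beyond 5 kb, while Cdx2 knockout kept 38.7% at 75 to 300 bp and 51.2% beyond 5 kb. The order of near and far was thus opposite in these lists, which share the wild-type list and were not tested against each other.

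The 235227 rows below 52 in the Hnf4a knockout list were mostly in neither of the named surroundings. A row was placed near a strong nucleosome when a row of 100 or more of the same list lay within 300 bp, and otherwise near a factor peak when a wild-type HNF4A peak, a wild-type CDX2 peak or a CDX2 peak of Hnf4a knockout lay within 1 kb. By this order 25581 rows (10.9%) were near a strong nucleosome, 33608 (14.3%) near a factor peak and 176038 (74.8%) near neither. These zones take up 2.58%, 2.12% and 95.3% of the genome as spanned by the lists. The first zone already holds the 183998 strong rows and 24454 rows of 52 to below 100. Its share of the genome is therefore not a like background for the low rows. HNF4A was within 1 kb of 69.9% of the rows near a factor peak, and of 75.6% of such rows scoring 52 to below 100. The HNF4A list was also the longest factor list used here. It had 22376 peaks, against 12121 and 7441 in the wild-type CDX2 libraries and 5768 for CDX2 in Hnf4a knockout. The part of the factor zone that lies near HNF4A was not measured.

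The placement changed steadily with the score. Of rows below 10, 3.10% were near a strong nucleosome and 84.6% near neither. Of rows from 40 to below 52, 24.2% were near a strong nucleosome and 59.2% near neither. Rows from 52 to below 100 continued this series, with 36.9% near a strong nucleosome and 46.9% near neither. The share near a factor peak lay between 12.3% and 16.7% in the 5 classes below 52. This range depends on the order of the classes, since a row near both was placed near a strong nucleosome. Below 10, 5385 rows were near a factor peak and 37088 near neither. From 40 to below 52 these numbers were 3930 and 13961, so among rows away from strong nucleosomes the factor share also rose.

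**Figure D5:**
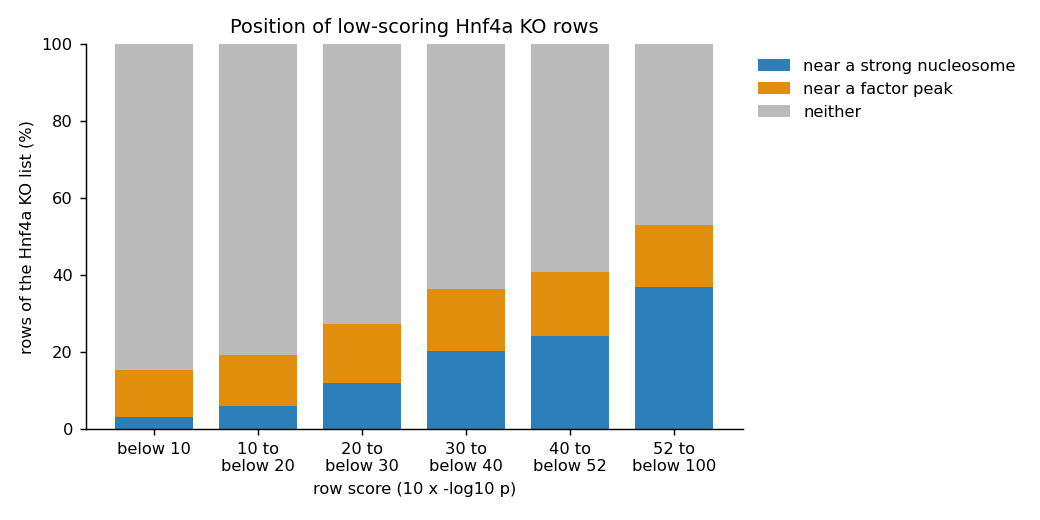
Share of rows of the Hnf4a knockout list (%, y axis) near a strong nucleosome, near a factor peak or near neither, by class of score (x axis). The share near a strong nucleosome grows from 3.10% below a score of 10 to 24.2% from 40 to below 52, and is 36.9% in the class just above the threshold.

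Rows near strong nucleosomes were most numerous at 180 to 200 bp from the strong one, where 5587 of the 25581 rows lay, and 10969 lay within 200 bp. The commonest distance between neighbours was 180 to 190 bp in all lists. Among these rows 18.6% had a wild-type nucleosome within 75 bp and 95.1% had one within 1 kb. Of the rows near factor peaks 8.76% had a wild-type nucleosome within 75 bp, and of the rows near neither 5.94%. The zone within 75 bp of a wild-type nucleosome takes up 1.40% of the genome, which is no baseline for these rows, as set out below.

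Many low rows coincided with nucleosomes called in another library. Over all rows below 52, 7.72% matched a wild-type nucleosome within 75 bp, 11.2% one of Cdx2 knockout, and 27.2% one of any of the 4 other lists. The match with wild type was 0.840% for rows below 10 and 23.9% for rows from 40 to below 52. For rows below 10 it was 2.32% with Cdx2 knockout, 4.06% with the library titled Cdx2-Cdx1 and 4.57% with the library titled Cdx2-Hnf4a. Most of the zone around wild-type nucleosomes is already taken by Hnf4a knockout rows of 52 or more, since 77.1% of wild-type nucleosomes have one within 75 bp, so its 1.40% of the genome is no baseline for the low rows. Rows from 52 to below 100 matched wild type at 43.6%. A match asks only for a centre within 75 bp, so the wild-type nucleosome may also have an Hnf4a knockout row of 52 or more. Scores of separate lists are also not on one scale.

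The rows near neither lay at widely differing distances from marked chromatin. Their median distance to a strong nucleosome was 2455 bp, with quartiles of 880 and 8910 bp, and 23.1% lay over 10 kb from one. An Hnf4a knockout nucleosome of 52 or more was within 1 kb of 45.0% of them. A wild-type nucleosome was within 1 kb of 43.9% of the rows near neither. The zone within 1 kb of a wild-type nucleosome takes up 6.42% of the whole genome. That share is not a like background, since rows near neither exclude the other zones by definition. Low rows tended to stand together, since 79.4% had another row below 52 within 1 kb. Within 1 kb of an HNF4A peak lay 12.4% of the rows below 52 and 25.2% of the rows of 52 or more.

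The scores of the low rows took few values. There were 136 distinct scores below 52 and 2363 at 52 or more. The commonest, 10.1, was held by 26093 rows, and the 10 commonest made up 56.5% of the rows below 52, against 17.1% at 52 or more. The shortest width, 80 bp, was found in 44.4% of the rows below 52 and in 29.8% of those of 52 or more. The median score was 30.3 for rows near a strong nucleosome, 20.9 near a factor peak and 16.0 near neither.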

How the data were processed

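The nucleosome lists give, per library, positions and 10 times the −log10 of a p-value, per the file headers. The authors deposited the factor lists with 1 score for each peak, under names that carry the word MACS, a peak caller. The build is mm9 according to the submitters' processing notes. Nucleosome positions are printed as deposited. No source used here gives the callers' settings, aligner, read depth or controls. HNF4A peaks of Cdx2 knockout and the input were not analysed here.

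Rows under 52 were set aside in every list. Nucleosomes were matched by centre (75 bp), joined into domains (500 bp), and counted around peak midpoints with Python 3.11.15, numpy 2.4.6, pandas 2.3.3 and scipy 1.17.1. Shares have exact Clopper-Pearson intervals, and count ratios exact conditional binomial ones. Both treat the counts as independent, although nucleosomes near several peaks recur in sums over peaks. The counting steps were tested on simulated lists. Named regions are the 10 domains with the largest fall and the 10 with the largest rise by count difference, the 5 called domains of each direction with the highest HNF4A peak, and the extreme 10 Mb bins. The members, lists and rules were chosen with earlier results of these data known. Gene lists fixed for promoters were not used here, since no annotation of build mm9 was at hand. The alternatives concern distances, thresholds and the deposited lists.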

Additional observations from a re-analysis of the deposited data

How the results depend on the processing

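No paired analysis was possible because each genotype had 1 library. The kept share moved between 74.5% and 85.8%, and the number kept stayed within 1.5 times of 189317 in all 4 alternatives. Nucleosomes found only in Hnf4a knockout numbered 23388 when they had to score at least 100 and 274075 with the lists as deposited, where the rows below 52 enter. Lower domains numbered 310 when joined at 250 bp, 125 with at least 6 nucleosomes, 54 in the deposited lists, 2858 in those scaled by list length, and 104 with rows below 52 added (an alternative chosen after seeing the data). Higher domains numbered 292 when joined at 250 bp, 309 at a score of 100 or more, where 352 were lower, 175 with at least 6 nucleosomes, 15104 in the deposited lists and 7930 in those scaled. The excess of higher over lower domains was thus not kept at 250 bp or at a score of 100. Around HNF4A peaks the ratio of Hnf4a knockout to wild type was 1.01 within 500 bp, 0.992 for scores of at least 100 and 1.45 in the deposited lists. Of unshared central nucleosomes, Hnf4a knockout held 53.7% for scores of at least 100 (51.6% to 55.7%) and 76.2% in the deposited lists, against 57.4% in the main count. Rows below 52 near strong nucleosomes numbered 10969 at 200 bp, 53925 at 500 bp, 48732 where strong meant 52 or more and 11758 where it meant 200 or more. Except for the deposited lists, where the rows below 52 enter, the cause of these moves was not tested. The unknown read depth limits every count of nucleosomes near the threshold.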
